A study of Mus musculus with 10 samples.

Results

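Onecut1 and Onecut2 (called Oc1 and Oc2 in the study) encode homeodomain transcription factors of the Onecut family that are made in young spinal motor neurons and take part in their diversification. When an allele is made by gene targeting and bred into a line, the DNA on either side of it travels with it, so that genes close to the targeted gene can carry sequence of the strain in which the allele was made (passenger sequence) or can be altered in cis by what was deleted or inserted. The genes of 2 chromosome windows around the targeted loci were therefore compared between control and mutant samples, each gene in turn and by its distance from the targeted gene. The windows reach 3 Mb to either side, on chromosome 9 around Onecut1 and on chromosome 18 around Onecut2 (GRCm38). They were fixed by position alone, and the bins of Onecut1, of Gm20649, a transcript annotated across Onecut1, and of Onecut2 were left out. This gave 1908 of the 425461 exon bins in the series and 229 of its 48968 genes, with 1158 bins of 151 genes around Onecut1 and 750 bins of 78 genes around Onecut2.

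RNA was sequenced from YFP-positive cells sorted from e10.5 mouse spinal cord, in 5 control and 5 cdKO samples. Control samples were Olig2-Cre+/-, Rosa26R-YFP+/-, Oc1+/Flox and Oc2+/Flox, and cdKO samples were Olig2-Cre+/-, Rosa26R-YFP+/-, Oc1-/Flox and Oc2-/Flox. Both groups carried a floxed allele of each gene, so what differed in the flanking DNA was that 1 of the 2 chromosomes bore the wild-type allele in controls and the null allele in cdKO samples. Sequence linked to the floxed alleles was shared by the groups and cannot be seen in this comparison. The strain in which the null alleles were made is not given in the sources used here, and neither is whether a sample was a single embryo or a pool. Cre was driven by Olig2, which is active in motor neuron progenitors, and the sorted cells also include V3 interneurons of the ventral cord. Since the labels do not say that samples are separate embryos, p-values measure the spread between these samples.

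The deposited values were counts of reads on each exon bin, a stretch of exon bounded by annotated exon ends. A read that spans several bins adds a count to each of them, and strand was not used. Totals over bins ranged from 63932395 to 107709534 in control samples and from 72315782 to 84249157 in cdKO samples, of which the flanking bins took 0.304 to 0.541% and 0.242 to 0.467%. The cdKO replicate 5 stood apart, with counts on 198569 bins against at least 243970 in every other sample. The 8 motor neuron markers examined were all tested, 1 of them with an unadjusted p under 0.05, with a summed level of 526 to 688 CPM (counts relative to library size, per 1e6, with library sizes scaled by edgeR's TMM method) in controls and 307 to 783 in cdKO samples. The first exon of Onecut1 held 63 to 210 counts in control samples and 0, 17, 0, 3 and 0 in the cdKO samples, or 2.93% of the control mean CPM. The 2 counted bins of Onecut2 stood at 194% and 137% of their own control means, with the most counts in cdKO replicate 5. The first held 18 to 71 counts in controls, 19 to 87 in cdKO replicates 1 to 4 and 173 in cdKO replicate 5. The second held 85 to 565, 87 to 458 and 801 counts. The study notes that tissue with the null allele still makes truncated Onecut2 transcripts without a functional product, so counts on these bins do not check the labels.

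Most of the flanking genes were silent or nearly so in these cells. Of the 229, 85 passed edgeR's filter on low counts (48 around Onecut1 and 37 around Onecut2), 63 of them protein-coding. Of the 144 that did not pass, 73 had no count in any sample, and the highest total over the 10 samples was 193 counts. The windows also hold 37 pseudogenes and 11 microRNA genes. Among bins, 921 of 1908 passed the filter and 320 were never counted. No flanking bin had counts in every sample of 1 group and in none of the other. Such bins were rare throughout: of all 425461 bins, 68 had counts in every control and in no cdKO sample, and 12 the reverse. Of the flanking bins, 773 held at least 10 counts in every control sample. None of these was at 0 in 4 or more cdKO samples, against 1 of 150031 over all bins. The null allele lies on 1 of 2 chromosomes, so a deletion linked to it would lower a bin and not empty it. These counts therefore cannot show whether such a deletion is present.

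Levels among the 85 genes spanned several orders of magnitude. Nedd4, an E3 ubiquitin ligase gene abundant in embryonic neural tissue and lying 2112 kb below Onecut1 (toward the chromosome start), took 17.0 to 35.3% of all flanking counts. It stood at 1240, 868, 1530, 1639 and 802 CPM in control replicates 1 to 5 and at 750, 1267, 1012, 1443 and 582 CPM in cdKO replicates 1 to 5. The groups overlapped over most of their range (log2 fold change -0.27, SE 0.32, cdKO over control). In these bulk samples, fewer cells of a type and less RNA per cell cannot be told apart. Around Onecut2 the most abundant was Csnk1a1, encoding casein kinase 1 alpha, at 334 to 630 CPM in controls and 266 to 531 CPM in cdKO samples (log2 fold change -0.34, SE 0.28).

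No flanking gene passed an adjusted p of 0.05 in the comparison of cdKO with control samples (edgeR's quasi-likelihood test, with p-values adjusted by Benjamini-Hochberg for the 17858 genes tested). The lowest adjusted p among the 85 was 0.936. The same fit called 0% of all genes at that threshold, so this count does not set the flanking genes apart from the rest. DESeq2 and limma-voom called 0.0663% and 0.0728% of all genes and no flanking gene. At an unadjusted p under 0.05 edgeR called 4 of the 85 (4.71%), against 4.99% of all genes tested. Of these, 3 were lower in cdKO samples, where the share over all genes was 0.818%, and 1 was higher, where it was 4.18%. The 3 lower ones were Sh3tc2, Afap1l1 and 1500015A07Rik, all 2324 to 2604 kb below Onecut2. They are not 3 separate observations, since Afap1l1 and 1500015A07Rik overlap and share reads. Sh3tc2 passed the filter through its control counts and drops out where every sample must have at least 10 counts. DESeq2 and limma-voom also gave each of the 3 an unadjusted p under 0.05. Both were run on the same counts and add no separate support. The higher gene was 2310009A05Rik, 1819 kb below Onecut1. DESeq2, which tested 156 flanking genes, had 5.84% of those with a p at that threshold (9 genes), where its share over all genes was 4.83%. For limma-voom it was 11 of 85 (12.9%), where the share was 8.6%. By group, 3 of 37 genes around Onecut2 (8.11%) and 1 of 48 around Onecut1 (2.08%) were below 0.05, against 4.96% and 5.26% on the rest of chromosomes 18 and 9. In a single gene, 1500015A07Rik, every cdKO value lay below every control value (1.18% of 85), against 0.409% of all genes whose groups did not overlap in either direction. With a sample left out the count was 1 to 4, the highest without control replicate 5.

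In edgeR's fit of all 10 samples, the largest differences did not lie close to the targeted genes. With 4.99% of all genes at an unadjusted p under 0.05, a count over 15 genes cannot show whether differences crowd there. None of the 15 tested genes under 0.5 Mb from Onecut1 or Onecut2 had such a p in that fit. With limma-voom, where 8.6% of all genes had such a p, Gm16551 did, 1.79 kb from Onecut1. Tmod2, Tmod3 and Piezo2, between 0.5 and 1 Mb, did so too. Wdr7, also under 0.5 Mb, had such a p in edgeR without control replicate 5. In the fit of all samples, log2 fold changes under 0.5 Mb ran from -0.52 to 0.40. Between 0.5 and 1 Mb the range over 10 genes was -0.59 to 0.51, between 1 and 2 Mb over 24 genes -0.91 to 1.56, and between 2 and 3 Mb over 36 genes -4.21 to 1.61. The median absolute log2 fold change was 0.22, 0.44, 0.24 and 0.52 in these 4 classes and 0.29 over all genes. Across the 85 genes the Spearman correlation of distance with the absolute log2 fold change was 0.31 (0.30 around Onecut1 and 0.33 around Onecut2), that is, larger differences farther from the targeted gene. These genes share their libraries and neighbours share reads, and the genes beyond 1 Mb were also measured less precisely, with a median half-width of the 95% interval of 1.06 between 1 and 2 Mb and 1.0 between 2 and 3 Mb, against 0.73 under 0.5 Mb.

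**Figure D1:**
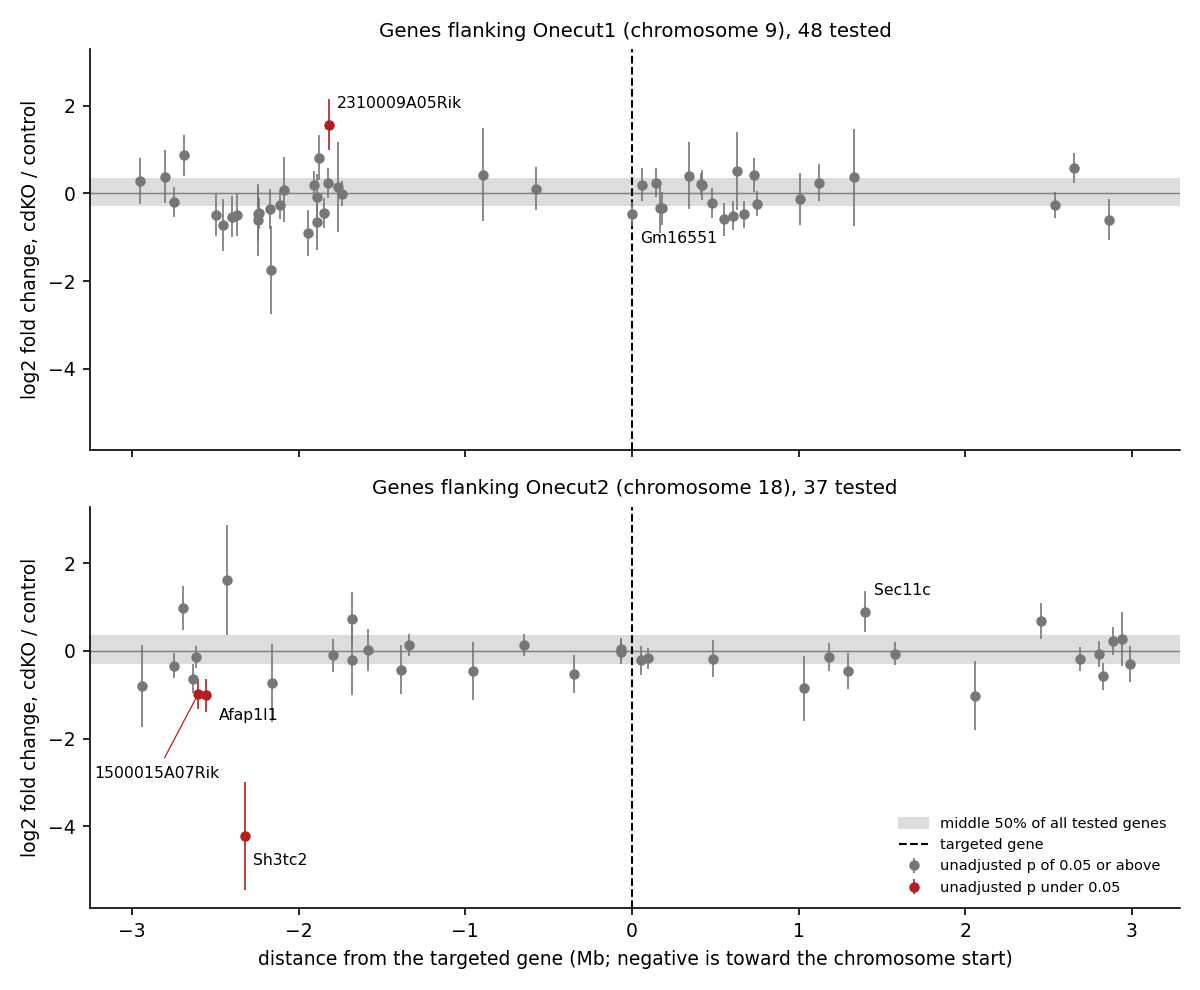
Log2 fold change (cdKO over control) of the 48 tested genes around Onecut1 and the 37 around Onecut2 against distance from the targeted gene in Mb, with bars of 1 SE. The band holds the middle 50% of all tested genes. The 15 genes under 0.5 Mb lie between -0.52 and 0.40, and the 3 lower genes in red sit 2324 to 2604 kb below Onecut2.

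Taken by window, the flanking genes leaned slightly toward lower values in cdKO samples. The median log2 fold change was -0.16 around Onecut1 and -0.18 around Onecut2, against -0.03 and -0.12 on the rest of the 2 chromosomes and -0.02 over all genes. The lean around Onecut1 rested on cdKO replicate 1, without which its median was -0.014, and without cdKO replicate 4 it was -0.29. Of the genes around Onecut2, 26 of 37 (70.3%) had a negative value, and the share on the rest of chromosome 18 was 62.3%. Around Onecut1 it was 27 of 48 (56.3%), against 52.1% on the rest of chromosome 9. By distance the medians were -0.17, -0.06, -0.04 and -0.35 from the closest class to the farthest. Without cdKO replicate 5 the first was -0.05 and the second -0.36, and the third ran from -0.14 without cdKO replicate 4 to 0.079 without cdKO replicate 1. The genes below Onecut1 had a median of -0.23 and those above it 0.04. The genes below Onecut2 had a median of -0.22 and those above it -0.17.

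The 95% intervals show how large a difference could have gone unseen. Loss of the output of 1 of 2 copies corresponds to -1 on the log2 scale. Under 0.5 Mb, the 95% interval lay above -1 for 9 of 15 genes and within -1 and 1 for 8 of them. Over all 85 genes it lay above -1 for 40 and reached -1 or lower for 45. Of these 45, the intervals of Sh3tc2, Afap1l1 and 1500015A07Rik lay wholly below 0. Those of the other genes held both values, so that a loss of that size could not be told from no difference at this depth and spread. The narrowest half-width was 0.51. Only 6 of the 85 genes (7.06%) had an absolute log2 fold change over 1, against 9.28% of all genes. Of these, Gm7265, Pmaip1 and Ablim3, named here after their values were seen, each had low counts and an SE of at least 0.78.

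The gene closest to either targeted locus was Gm16551, a long non-coding RNA gene on the same strand as Onecut1 that ends 1.79 kb before the first exon of Onecut1 (chromosome 9, 74847983 to 74860134). Its annotated transcripts share their first exons, where they overlap Gm20649, and end in alternative last exons, an inner one and an outer one close to Onecut1. The start of the inner last exon (chr9:74850761-74850899, plus strand) and the whole outer one (chr9:74859882-74860134, plus strand) are shown because they belong to the tested gene closest to the null allele and their bins stood apart from each other in 1 sample. The rest of the inner exon, nearer to Onecut1, is not shown. Both stretches were read from the GENCODE M21 transcripts. Capitals mark, in the first, the bin of 39 bases that only the longer inner form contains and, in the second, the 20 bases nearest to Onecut1.
Inner last exon: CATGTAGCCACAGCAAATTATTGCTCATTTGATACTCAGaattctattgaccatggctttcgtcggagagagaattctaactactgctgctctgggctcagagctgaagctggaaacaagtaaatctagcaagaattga
Outer last exon: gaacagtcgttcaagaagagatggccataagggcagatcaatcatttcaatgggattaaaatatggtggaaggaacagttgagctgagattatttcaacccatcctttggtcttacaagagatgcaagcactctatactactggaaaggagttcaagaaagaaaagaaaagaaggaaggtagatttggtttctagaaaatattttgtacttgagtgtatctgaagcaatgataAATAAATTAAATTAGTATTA

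Summed over its own bins, Gm16551 was at 28.5, 29.8, 51.6, 45.0 and 34.0 CPM in control replicates 1 to 5 and at 22.7, 29.0, 25.8, 35.5 and 23.5 CPM in cdKO replicates 1 to 5. All 5 cdKO values lay below the control mean of 37.8, but the groups overlapped. The log2 fold change was -0.47 (SE 0.27, 95% interval -1.05 to 0.11), with an unadjusted p of 0.106 and an adjusted p of 0.957 in edgeR's quasi-likelihood test and p = 0.0714 in a two-sided exact permutation test of mean log2(CPM + 0.5). With limma-voom its unadjusted p was under 0.05. The 4 bins it shares with Gm20649, which were counted for neither gene, stood at 69.0 to 90.7% of the control mean.

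Bin by bin, the inner and the outer last exon of Gm16551 had values of opposite sign, and that of the outer one rested on cdKO replicate 5. The 253 bases of the outer exon were at 1.02, 0.664, 1.10, 0.640 and 1.29 CPM in controls and at 1.10, 0.965, 1.06, 0.812 and 7.48 CPM in cdKO samples. The 405-base bin of the inner exon was at 6.28, 6.09, 10.4, 7.77 and 5.27 CPM in controls and at 4.59, 5.99, 5.07, 7.0 and 0.846 CPM in cdKO samples. The first 4 cdKO samples thus lay within or near the control range in both, while replicate 5 was far above it in the outer exon and far below it in this bin of the inner one. The outer exon's log2 fold change was 1.26 (SE 0.63), and 0.06 without cdKO replicate 5. The longest bin, 1668 bases of the inner exon, was at 18.1 to 32.0 CPM in controls and 14.1 to 23.6 CPM in cdKO samples. On this scale cdKO replicate 5 was the highest cdKO value, although it had the fewest counts (836 against 1155 to 2056). CPM of single bins uses TMM factors of the bins and CPM of genes those of the genes. The order of cdKO replicate 5 in this bin therefore depends on the scale. In the 454-base bin at the start of the gene, without cdKO replicate 5 all 4 remaining cdKO values (0.0890 to 0.134 CPM) lay below the controls (0.144 to 0.462 CPM), a log2 fold change of -1.27. These are 8 to 11 counts against 16 to 35, and with cdKO replicate 5, at 0.931 CPM, the value was -0.09 (SE 0.69).

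**Figure D2:**
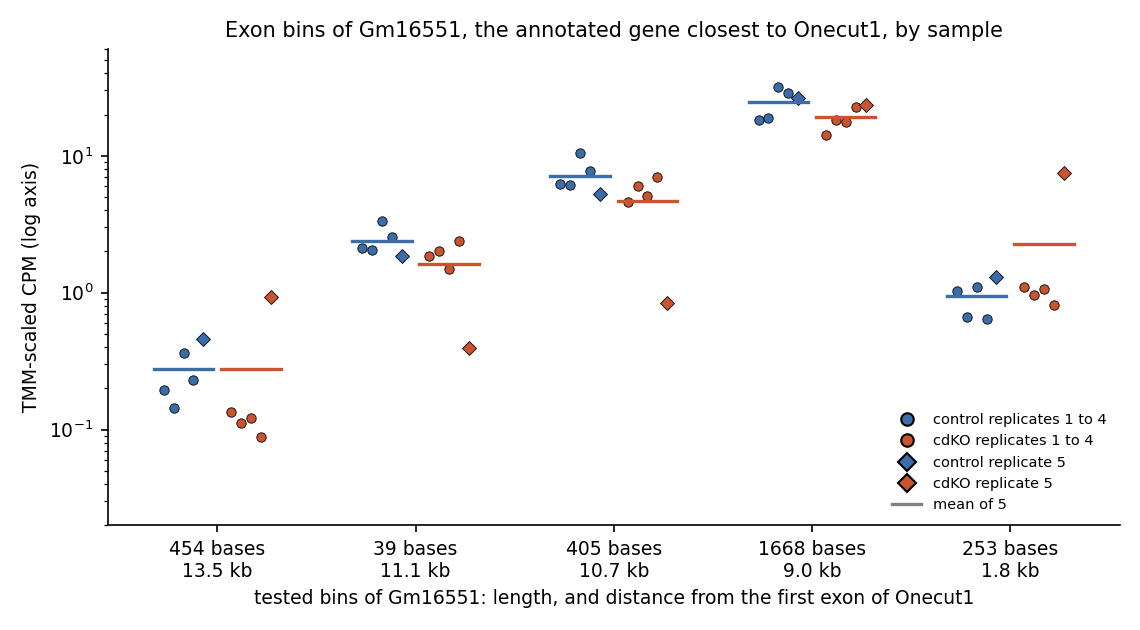
TMM-scaled CPM on a log axis for the 5 tested bins of Gm16551 in each sample, ordered by position, with bin length and the distance to the first exon of Onecut1 in kb. CPM uses the TMM factors of the bins. Diamonds are replicate 5 of each group and lines are means of 5. In the 253-base bin 4 cdKO samples lie among the controls and cdKO replicate 5 is at 7.48 CPM.

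The other tested genes under 0.5 Mb from Onecut1 all lie above it. Arpp19, which encodes a phosphoprotein that inhibits the phosphatase PP2A in mitosis, starts 146 kb away and was the most abundant gene under 0.5 Mb on that side. Its level was 247, 197, 271, 219 and 367 CPM in controls and 176, 271, 259, 286 and 551 CPM in cdKO samples. Replicate 5 was the highest value of each group, and the groups overlapped (log2 fold change 0.25, SE 0.32, 95% interval -0.45 to 0.94). Fam214a, closest to Onecut1 among protein-coding genes at 61.1 kb and with little known function, was at 4.19 to 15.5 CPM in controls and 6.10 to 17.1 CPM in cdKO samples (0.20, SE 0.38). Myo5a, the class V myosin that carries melanosomes and neuronal cargo, had a log2 fold change of -0.34 (SE 0.38). Gnb5, a G protein beta subunit, was at 0.21 (SE 0.25) and Mapk6, the atypical MAP kinase ERK3, at -0.22 (SE 0.34). The low genes here were Myo5c and the pseudogene Gm2981, each under 1.3 CPM in every sample. Gm19531 lies on the opposite strand of Gnb5, with 92.4% of its counts on bins that overlap it, so its values cannot be told apart from those of Gnb5. The apoptosis regulator gene Bcl2l10 had 2 counts in all.

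Around Onecut2 the 6 tested genes under 0.5 Mb were Fech, St8sia3, St8sia3os, Nars, Wdr7 and Nedd4l. Nars, encoding the cytoplasmic asparaginyl-tRNA synthetase and the most abundant of them, was at 261, 232, 247, 276 and 329 CPM in controls and 199, 251, 205, 270 and 272 CPM in cdKO samples. Its log2 fold change was -0.17 (SE 0.24, 95% interval -0.68 to 0.34), the narrowest interval among all 85 genes. Fech, the ferrochelatase that completes heme and the closest tested gene at 55.6 kb, was at 45.6, 49.6, 37.5, 40.4 and 43.6 CPM in controls and at 47.9, 41.8, 43.6, 40.9 and 12.4 CPM in cdKO samples. The other 4 cdKO values lay within the control range, and the log2 fold change moved from -0.22 (SE 0.33) to 0.01 (SE 0.19) without it. St8sia3, a sialyltransferase of the nervous system, was at 25.1 to 46.0 CPM in controls and 34.8 to 46.5 CPM in cdKO samples (0.05, SE 0.25). Its antisense gene St8sia3os had 98.6% of its counts on bins that overlap St8sia3 and gives no independent value. Wdr7, an adaptor of the vesicular proton pump, had the largest difference of the 15, with 24.2, 21.8, 24.1, 41.9 and 5.63 CPM in controls and 13.6, 18.3, 21.1, 19.2 and 9.52 CPM in cdKO samples. Its 4 higher controls lay above every cdKO value, but control replicate 5 lay below them all (log2 fold change -0.52, SE 0.43, adjusted p = 0.995). Without control replicate 5 the value was -0.78, with an unadjusted p under 0.05 in edgeR. Nedd4l, a ubiquitin ligase related to Nedd4 that acts on ion channels, was at -0.18 (SE 0.42). The flippase gene Atp8b1, 128 kb above Onecut2, had 7 counts in all.

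**Figure D3:**
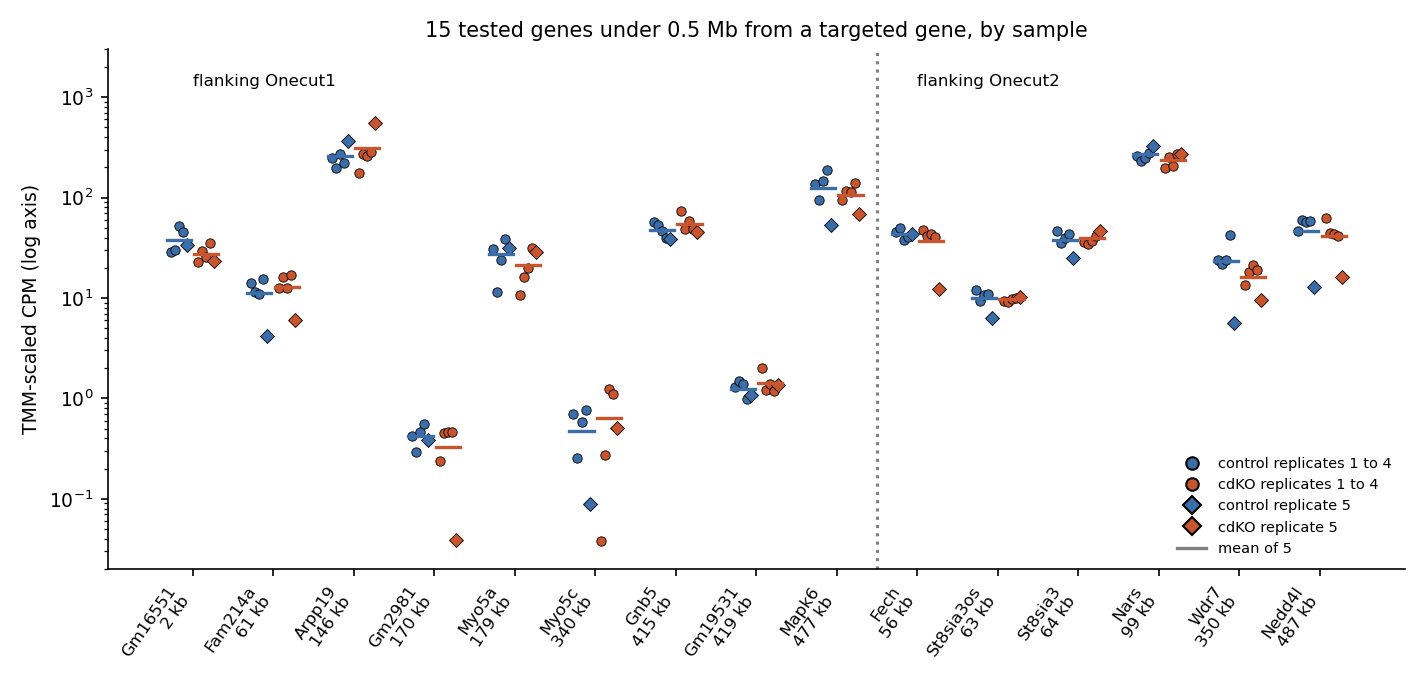
TMM-scaled CPM on a log axis of the 15 tested genes under 0.5 Mb from a targeted gene, in each of the 5 control and 5 cdKO samples, ordered by distance within each window. Diamonds are replicate 5 of each group and lines are means of 5. In each gene the 2 groups overlap.

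The 3 genes with lower values in cdKO samples lie together, far from Onecut2. Sh3tc2 (chromosome 18, 61953075 to 62024402), a gene known for its role in myelinating Schwann cells, was at 0.985, 2.87, 2.06, 3.09 and 0.0586 CPM in controls, from 99, 302, 183, 230 and 4 counts. In cdKO samples it was at 0.365, 0, 0.110, 0 and 0 CPM, from 29, 0, 9, 0 and 0 counts. Controls 1 to 4 lay above every cdKO value, but control replicate 5 lay below 2 of them. The log2 fold change was -4.21 (SE 1.23, 95% interval -6.86 to -1.56), with an unadjusted p of 0.00433 and an adjusted p of 0.936 in edgeR's quasi-likelihood test and p = 0.0238 in the exact permutation test. Each of its 17 bins, none of which passed the filter by itself, held counts in at least 1 control sample, and all 4 counts of control replicate 5 lay on the last of them.

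Sox10, which defines neural crest and the Schwann cell lineage that comes from it, was examined beside Sh3tc2. It was near 0 in both groups, at 0.0538 to 0.132 CPM in controls and 0.0609 to 0.264 CPM in cdKO samples, and the ranges overlapped.

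Afap1l1, which encodes an actin filament associated protein, and the long non-coding RNA gene 1500015A07Rik overlap on opposite strands 2553 and 2604 kb below Onecut2 and share part of their reads. Afap1l1 (chromosome 18, 61730261 to 61786702) was at 8.04, 9.68, 10.6, 8.80 and 5.90 CPM in controls and at 4.82, 3.67, 6.64, 4.68 and 1.51 CPM in cdKO samples. Only the lowest control lay below the highest cdKO value (log2 fold change -1.01, SE 0.38, unadjusted p = 0.0184, adjusted p = 0.936). 1500015A07Rik (chromosome 18, 61726390 to 61735917) was at 3.49, 3.06, 3.28, 3.97 and 5.88 CPM in controls and 1.45, 1.46, 2.1, 2.08 and 2.82 CPM in cdKO samples, and the groups did not overlap. Its log2 fold change was -0.99 (SE 0.34, unadjusted p = 0.0120, adjusted p = 0.936), and the exact permutation p of 0.00794 is the smallest that 5 against 5 samples allow. Bins overlapping the opposite gene held 25.1% of the counts of 1500015A07Rik and 11.5% of those of Afap1l1. Within both genes the lower values lay mostly in some of the bins. These were chosen here by their own values, so that what follows is a description with no test of the split. In Afap1l1 the 5 bins between 61730261 and 61736947, at the end of the gene where it meets 1500015A07Rik, held 68.1% of its counts. They summed to 6.4, 6.67, 8.41, 5.26 and 5.89 CPM in controls and to 1.91, 1.97, 3.78, 2.12 and 1.51 CPM in cdKO samples, and the groups did not overlap. The 129-base bin among them had a log2 fold change of -1.86 (SE 0.41). The other 20 bins of Afap1l1 summed to 1.64, 3.0, 2.18, 3.54 and 0.0147 CPM in controls and to 2.91, 1.7, 2.86, 2.57 and 0 CPM in cdKO samples, with means of 2.07 and 2.01 CPM. Of the 20, 7 had the higher mean in cdKO samples and 13 the lower. Since the split used the bins' own p, it cannot show that the lower value was confined to the last exons. In edgeR's test of each bin against the other bins of its gene, Afap1l1 had an unadjusted p of 0.268 with Simes' summary and 0.0336 with an F test. For 1500015A07Rik these were 0.132 and 0.00995. None of the 4 passed an adjusted p of 0.05. In 1500015A07Rik the 1252-base bin was at 1.04 to 3.56 CPM in controls and 0.141 to 0.595 CPM in cdKO samples (-1.87, SE 0.49), and the bin shared with Afap1l1 was lower as well (-1.28, SE 0.36). Its 570-base bin, also outside the overlap, was at 0.807 to 1.48 CPM in controls and 0.482 to 3.05 CPM in cdKO samples (0.14, SE 0.52). These values of single bins use the bins' own scaling, while the sums over bins use that of the genes. On the scale of the genes the 570-base bin had means of 1.06 CPM in controls and 0.977 CPM in cdKO samples, so its direction depends on the scale. The 4 bins other than the lower pair, this one among them, summed on the scale of the genes to a mean of 1.14 CPM in controls and 1.12 CPM in cdKO samples. Afap1l1 is known from vascular cells, and the 3 endothelial markers examined, 2 of them tested, summed to 0.922 to 3.22 CPM in controls and 0.931 to 2.07 CPM in cdKO samples, with no tested marker at an unadjusted p under 0.05. Cdh5, which defines endothelium, was at most 0.137 CPM in any sample. The part of such cells in the result was not tested.

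The genes around these 3, named here after their values were seen, did not share one direction. Pcyox1l, a prenylcysteine oxidase-like gene farther from Onecut2 than 1500015A07Rik, was at 22.1 to 37.5 CPM in controls and 9.79 to 33.2 CPM in cdKO samples (log2 fold change -0.63, SE 0.34). Grpel2, a mitochondrial co-chaperone gene between them, was at 31.3 to 54.8 CPM in controls and 30.9 to 39.6 CPM in cdKO samples (-0.14, SE 0.25). Ablim3, an actin-binding LIM protein gene between Afap1l1 and Sh3tc2, had a positive value with a wide error (1.61, SE 1.26). None of these had an unadjusted p under 0.05.

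**Figure D4:**
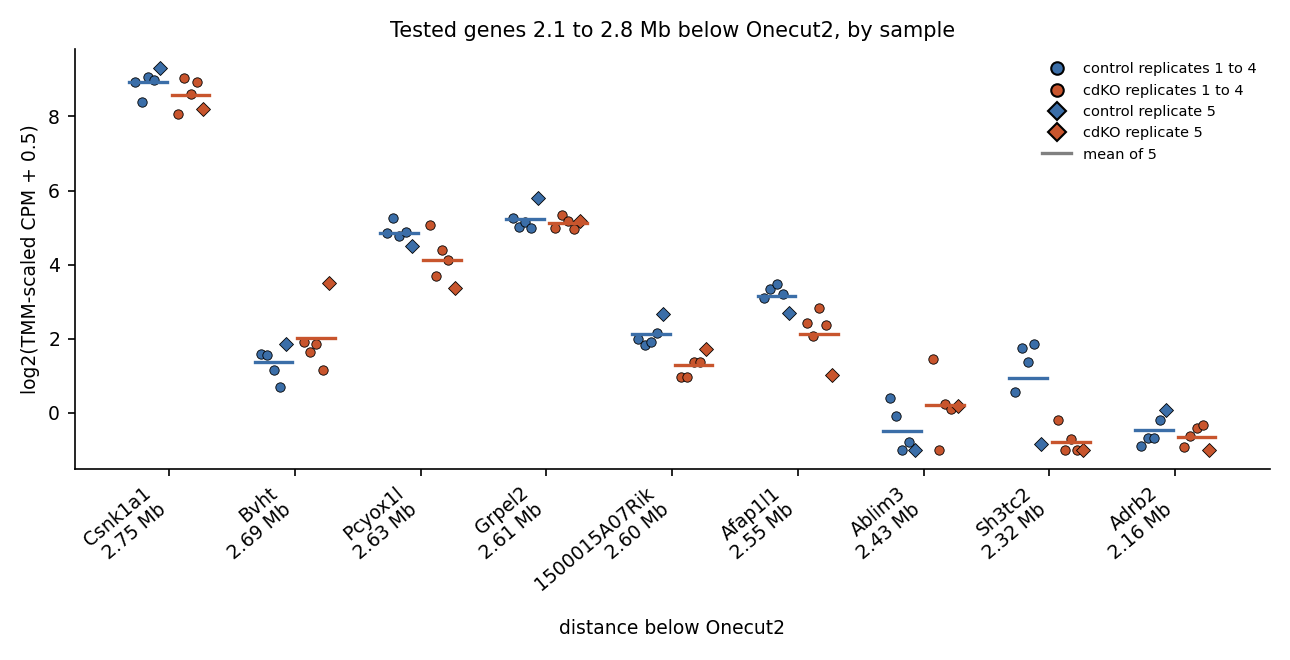
Log2(TMM-scaled CPM + 0.5) of 9 tested genes 2160 to 2750 kb below Onecut2 in each sample, in order of position. Diamonds are replicate 5 of each group and lines are means of 5. Control values of 1500015A07Rik lie above all cdKO values, those of Afap1l1 and Sh3tc2 nearly so, and Grpel2 and Csnk1a1 overlap.

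The gene with a higher value in cdKO samples was 2310009A05Rik (chromosome 9, 73039718 to 73042779), annotated in GENCODE as a non-coding transcript and in RefSeq as Pigbos1, a gene for a small mitochondrial protein. Its first exon lies within the first exon of Pigb, a mannosyltransferase gene of the GPI anchor pathway on the opposite strand, named here after its values were seen. The bin of 12 bases at its start (chr9:73039718-73039729, plus strand, GENCODE M21 transcript) is shown in capitals because reads of the 2 genes cannot be told apart there.
First bin of 2310009A05Rik: GCTGCCGGAAGC

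The level of 2310009A05Rik was 13, 11.8, 11.7, 8.49 and 18.1 CPM in controls and 15.7, 16.0, 23.5, 12.7 and 119 CPM in cdKO samples. The log2 fold change of 1.56 (SE 0.58, unadjusted p = 0.0184 and adjusted p = 0.936 in edgeR) came down to 0.43 (SE 0.27) without cdKO replicate 5. The 12-base bin was at 0.193 to 0.662 CPM in controls and 0.426 to 0.958 CPM in cdKO replicates 1 to 4, and at 7.45 CPM in cdKO replicate 5. The first-exon bin of Pigb moved with it, at 2.64 to 6.55 CPM in controls, 3.78 to 7.86 CPM in cdKO replicates 1 to 4 and 57.7 CPM in cdKO replicate 5. The second exon of 2310009A05Rik, which does not overlap Pigb, was at 4.6 to 11.8 CPM in controls, 7.41 to 14.5 CPM in cdKO replicates 1 to 4 and 106 CPM in cdKO replicate 5. These bin values use the bins' own scaling and cannot be set against the gene's 119 CPM. By counts, in cdKO replicate 5 the second exon held 3756 of the gene's 6080. The first-exon bin of Pigb held 2046 of Pigb's 2284 counts in that sample. Summed over its bins, Pigb had a log2 fold change of 0.24 (SE 0.34).

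Tested bin by bin, the flanking exons gave the same picture as the genes. None of the 921 tested bins passed an adjusted p of 0.05, as 0% of the 187433 bins tested over the whole table did. At an unadjusted p under 0.05 there were 19 bins (2.06%) of 10 genes, 10 lower and 9 higher in cdKO samples, against 3.12% of all bins. Their number was 35, 32 and 31 without cdKO replicate 1, 2 or 4 and 12 without control replicate 4. The 7 with the smallest p were all of Afap1l1 or 1500015A07Rik. Groups did not overlap in 7 flanking bins (0.760%), against 0.214% of all bins. Bins of 1 gene, and of this overlapping pair, share reads and are not separate observations. Within 0.5 Mb of a targeted gene, 1 of 224 tested bins had an unadjusted p under 0.05, a 508-base bin of Arpp19. It was at 0.188 to 0.567 CPM in control replicates 1 to 4 and 3.11 in control replicate 5, and at 0.0728 to 0.536 CPM in cdKO samples (log2 fold change -1.86, SE 0.84), and without control replicate 5 the value was -0.41.

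Whether part of a gene moved against the rest of it was tested as bin usage with edgeR. No flanking gene of the 61 tested passed an adjusted p of 0.05 with Simes' summary over bins, as 0% of 12357 genes did. At an unadjusted p under 0.05 there were 4 (6.56%), Tmod3, Sec11c, Gm16551 and Arpp19, against 1.17% of all genes. None of the 4 kept such a p in every fit that left out 1 sample. The highest was 0.245 for Tmod3 (a capping protein of actin filaments) and 0.682 for Gm16551, both without cdKO replicate 5, 0.608 for Arpp19 without control replicate 5, and 0.153 for Sec11c (a catalytic subunit of signal peptidase) without control replicate 4. With an F test over the bins in place of Simes' summary, 1 flanking gene, Pigb, passed (adjusted p = 0.0136 in edgeR), against 0.194% of all genes. Its adjusted p stayed under 0.05 without control replicate 5 or cdKO replicate 1, 2 or 4 and went above it without any other sample, to 1.0 without cdKO replicate 5 or control replicate 3. Scaled by library size alone it was also 1.0, and with a replicate block Pigb was not called. Bins that overlap genes on the opposite strand held 69.9% of Pigb's counts. In its first-exon bin, at 57.7 CPM in cdKO replicate 5, reads cannot be told apart from those of 2310009A05Rik. The part of those reads in the F test was not tested.

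By role, the named groups gave no change that passed the test, and each is given by its counts. Of genes for vesicle transport and secretion, 8 of 10 members were tested, with a median log2 fold change of 0.14, and 5 of 8 values were positive. Scg3, a secretory granule protein, was at -0.23 (SE 0.28), Napg, the gamma form of SNAP, at 0.14 (SE 0.26), and Lman1, a cargo receptor between the endoplasmic reticulum and the Golgi apparatus, at -0.06 (SE 0.26). Sec11c was at 21 to 38.1 CPM in controls and 27.6 to 36.6 CPM in cdKO replicates 1 to 4, with 142 CPM in cdKO replicate 5 (0.90, SE 0.47). All 5 genes of ubiquitin ligases and protein turnover were tested, with a median of -0.18. Beside Nedd4 and Nedd4l, Txnl1, a thioredoxin-like protein of the proteasome, was at 0.13 (SE 0.24), and Fbxo38, an F-box protein, at -0.10 (SE 0.38).

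Of receptors, ligands and signalling genes, 12 of 16 were tested, none with an unadjusted p under 0.05, with a median of -0.20. The ends of their range, named here after their values were seen, were Prtg and Mc4r. Prtg, which encodes protogenin, a receptor-like protein of early neural progenitors, was at 17.7, 14.3, 35.9, 52.7 and 70.3 CPM in controls and at 7.64, 40.5, 13, 28.4 and 11.8 CPM in cdKO samples (-0.91, SE 0.52). Mc4r, the melanocortin receptor, was at 5.0, 3.34, 4.1, 2.96 and 0.864 CPM in controls and at 7.46, 4.62, 4.59, 5.06 and 4.42 CPM in cdKO samples (0.68, SE 0.42). In both genes the groups overlapped. Silent or low in these cells were Bmp5, Ccbe1, Gfral and Htr4, which did not pass the filter. Of transcription and chromatin genes, 6 of 7 were tested, with a median of -0.32. Tcf12, an E protein that pairs with neurogenic bHLH factors, was at 99.6 to 198 CPM in controls and 73.6 to 213 CPM in cdKO samples (-0.19, SE 0.34). Leo1, a subunit of the Paf1 elongation complex, was at -0.59 (SE 0.37), with control replicate 5 at 159 CPM and the other controls at 45.7 to 72.5 CPM. The zinc finger genes Zfp280d and Zfp532 were at -0.50 (SE 0.48) and -0.14 (SE 0.32).

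Of cytoskeleton and muscle-type genes, 6 of 8 were tested, with a median of -0.39, and 1, Afap1l1, had an unadjusted p under 0.05. The tropomodulins Tmod3 and Tmod2, neighbours on chromosome 9, were at -0.51 (SE 0.33) and -0.48 (SE 0.31), the tubulin gene Tubb6 at -0.30 (SE 0.41) and Lrrc1 at -0.26 (SE 0.30). Of metabolism and housekeeping genes, 7 of 8 were tested, with a median of -0.14. Rsl24d1, a ribosome assembly factor, was at -0.01 (SE 0.28), and Gclc, which makes the rate-limiting enzyme of glutathione synthesis, at -0.60 (SE 0.46), with 35.2 to 79.0 CPM in cdKO replicates 1 to 4 and 6.92 CPM in replicate 5. The 3 cilium and sperm genes were all tested, with values of -0.50 for Tex9 (SE 0.48), -0.53 for Mns1 (SE 0.47) and -0.08 for Dyx1c1 (SE 0.53). Without control replicate 5, Tex9 was at 0.0018 and Mns1 at -0.13. Tex9 and Mns1 overlap on opposite strands.

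In both groups the fifth sample was often at the edge of its group. The cdKO replicate 5 was the lowest or the highest of the 5 cdKO samples in 59 of 85 flanking genes (69.4%), and control replicate 5 was so among controls in 59 as well. Over all genes the shares were 75.2% and 66.6%, so this holds for these libraries as a whole. Markers of red blood cells were also uneven, with a summed level of 0.835 to 14.2 CPM in controls and 2.21 to 54.9 CPM in cdKO samples, the highest in cdKO replicate 5, and 1 of 4 tested had an unadjusted p under 0.05. Markers of mesenchyme summed to 4.49 to 6.85 CPM in controls and 5.01 to 11 CPM in cdKO samples, 2 of 5 with such a p, and those of macrophages to 3.12 to 5.11 and 3.27 to 6.88 CPM, with 0 of 1. The part of these cells in the values of replicate 5 was not tested.

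**Figure D5:**
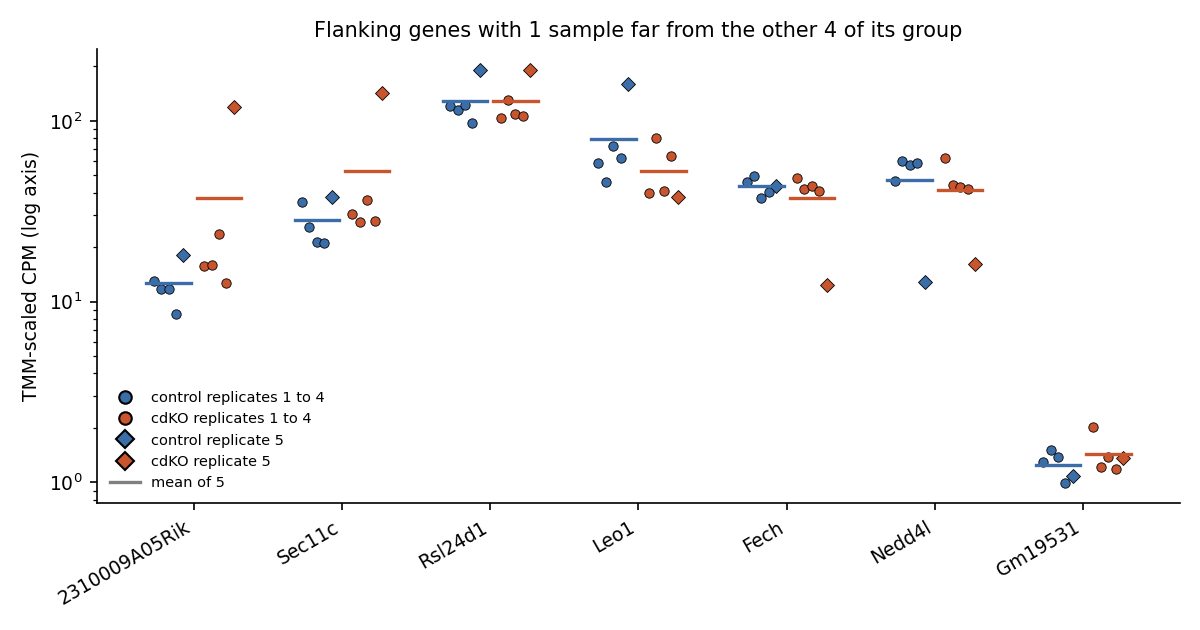
TMM-scaled CPM on a log axis of 7 flanking genes in which 1 sample lay far from the other 4 of its group. Diamonds are replicate 5 of each group and lines are means of 5. The cdKO replicate 5 is apart in 2310009A05Rik, Sec11c and Fech, control replicate 5 in Rsl24d1, Leo1 and Nedd4l, and cdKO replicate 1 in Gm19531.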

How the data were processed

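The authors deposited raw, unnormalized counts, 1 file for each of the 10 samples, with 1 value for every exon bin. The submitters' processing notes name bcl2fastq 2.17, Trimmomatic 0.36, STAR 2.5.2b, Subread 1.5.2, DESeq2 and GRCm38, with no roles given. The 425461 bins belong to 48005 units, 1194 of them several genes joined. Joined units were split by the exons of GENCODE M21 (GRCm38, bedtools 2.31.1), and 1637 bins with 0.353% of the counts that could not be given to 1 gene were left out, none of them flanking. Gene counts are sums over all bins of a gene, also for the 3 genes that reach beyond a window. A sum grows with the number of bins a read crosses. Distance is the gap between the ends of a gene's bins and those of the targeted gene.

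Counts of the whole table passed through filterByExpr (minimum count 10) and TMM scaling, and differences were tested with the quasi-likelihood method of edgeR 4.0.16 (R 4.3.3), p-values being adjusted by Benjamini-Hochberg, per gene, per bin and, with diffSpliceDGE, for bin usage. TMM factors were found apart for genes and for bins. CPM of a single tested bin uses the factors of the bins. CPM of genes, markers, summed bins and left-out bins uses those of the genes. Values on the 2 scales cannot be set against each other, least of all in cdKO replicate 5. SE is the log2 fold change over the root of F, and 95% intervals use the fit's degrees of freedom. Permutation tests ran over all 252 arrangements. Alternatives were DESeq2 1.42.0, limma-voom (limma 3.58.1), other scalings, filters and bin sets, a replicate block, and leaving out each sample. On simulated counts edgeR's gene fit called 36 of 79 genes changed by 2 on the log2 scale, 1 of 110 changed by 1 and 1 of 17280 unchanged ones. On simulated bins the bin fit called 116 of 174 bins changed by 3 on the log2 scale, and the usage test 122 of 199 genes.

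Genes were named if under 0.5 Mb from a targeted gene and coding or tested, at an unadjusted p under 0.05, with groups that do not overlap, among the 3 most abundant of a window, leading in the bin or usage tests, or among the 4 most abundant of a role group. The members, lists and role groups were chosen with earlier results of these data known. No 2 samples of a group were duplicates (chi-square per degree of freedom 111 to 1757 over 20 pairs). A floor of 3 counts is 0.0285 to 0.0586 CPM, for counting error only. The common biological coefficient of variation was 0.540. The summed level of the sensory neuron and neural crest markers is not reported here.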

Additional observations from a re-analysis of the deposited data

Results flagged for a closer look

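Of 80 groups of 5 samples examined (40 named genes in each condition), 7 had a sample whose gap to the nearest other value exceeded 0.71 of the group's range, Dixon's critical value for 5 samples. With independent, normally distributed values about 1 in 20 groups would be flagged, or 4 of 80. These genes share their libraries, some share reads, and 2310009A05Rik was named for a p that rested on cdKO replicate 5. The 4 is therefore not a firm reference for the number flagged. Of the 7, 3 were in cdKO replicate 5, 3 in control replicate 5 and 1 in cdKO replicate 1.

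The cdKO replicate 5 was apart in 2310009A05Rik, at 119 CPM with the other cdKO samples at 12.7 to 23.5. It was apart in Sec11c, at 142 CPM against 27.6 to 36.6, and in Fech, at 12.4 CPM against 40.9 to 47.9. Control replicate 5 was apart in Rsl24d1, at 191 CPM with the other controls at 97.4 to 122, in Leo1, at 159 CPM against 45.7 to 72.5, and in Nedd4l, at 12.8 CPM against 46.6 to 60.1. The cdKO replicate 1 was apart in Gm19531, at 2.03 CPM with the other cdKO samples at 1.18 to 1.39.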

How the results depend on the processing

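In no setting did a flanking gene pass an adjusted p of 0.05 in the gene test, and the lowest adjusted p over 751 alternative values of the 40 named genes was 0.12. Their direction was kept in 716 of these values and turned in 35, and 24 genes kept it in every setting. The number at an unadjusted p under 0.05, 4 with edgeR, was 9 with DESeq2 (5.84% of flanking and 4.83% of all genes), 11 of 85 with limma-voom using quality weights (12.9% and 8.6%) and 15 without a filter (9.62% and 7.01%), the first and last testing 156 flanking genes. With DESeq2's size factors or without a filter, 2 genes had groups that did not overlap. Scaled by library size alone, the median log2 fold change around Onecut2 was -0.30, where that of all genes was -0.15. The F test in place of Simes' summary called 1 gene in the usage test. Values near 0 changed sign. Rsl24d1 was at 0.017 with DESeq2's size factors and 0.00086 with at least 10 counts in every sample. With library size alone Napg was at -0.041, Txnl1 at -0.023 and St8sia3 at -0.12. With limma-voom Napg was at -0.048, St8sia3 at -0.096, Fech at 0.047 and Tubb6 at 0.19. The cause was not tested.

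When each sample was left out in turn, the number of genes whose groups did not overlap ran from 1 to 4 (4 without control replicate 5), that at an unadjusted p under 0.05 from 3 to 6, and the number of bins at such a p from 12 (without control replicate 4) to 35 (without cdKO replicate 1). The median between 0.5 and 1 Mb ran from -0.36 (without cdKO replicate 5) to 0.041. Log2 fold changes that turned ran from -0.73 to 0.0018 for Tex9, -0.59 to 0.21 for Dyx1c1, -0.19 to 0.17 for Rsl24d1, -0.013 to 0.37 for Fam214a, -0.062 to 0.40 for Arpp19, -0.014 to 0.71 for Myo5c, -0.25 to 0.13 for Fbxo38, -0.00045 to 0.24 for Napg, -0.16 to 0.049 for St8sia3os, -0.070 to 0.13 for St8sia3, -0.32 to 0.011 for Fech, -0.42 to 0.022 for Nedd4l, -0.34 to 0.0077 for Zfp532, -0.19 to 0.032 for Lman1 and -0.49 to 0.12 for Tubb6.

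Same-numbered samples did not deviate together in every pair (correlations from -0.26 to 0.32), so the numbers were not taken as pairs. With a replicate block, 5 genes (2.57% of all genes) and 15 bins had an unadjusted p under 0.05 and none passed the adjusted one, while the F test on bin usage no longer called Pigb (adjusted p = 1.0 in edgeR) and called Afap1l1. Depth limits the genes under about 1 CPM, and with 5 samples a group a change of 1 on the log2 scale was seldom called in simulated counts.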
